A study of Mus musculus with 11 samples.

Results

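The kynurenine pathway breaks down tryptophan and ends in NAD, and 10 genes of this route and of NAD synthesis were listed: Tdo2, Ido1, Afmid, Kmo, Kynu, Haao, Qprt, Acmsd, Aadat and Nampt. They were found by gene symbol in a deposited table and read through their Entrez numbers. Of the 10 genes, 9 had a row among the 16475 genes with values, and Acmsd had none among the values used here. They were followed in whole, saline-perfused kidneys of lupus-prone mice before nephritis: 7 from NZB/W F1 mice (6 weeks old) and 4 from NZW/BXSB F1 mice (8 weeks old), 11 kidneys in all. The labels name no transgene and no treatment in either strain, and by the study's account NZB/W mice were females and NZW/BXSB mice males, the sex that carries the Yaa locus of the BXSB parent. Strain, sex and age go together in these kidneys and cannot be told apart. How the arrays were batched is not given in the sources used here, and a batch that followed strain could not be told apart from it. In whole kidney, fewer cells of a type and less RNA per cell cannot be told apart either. The list was chosen by pathway, with the strain differences of these same expression values, Kynu among them, already in view, so its differences between strains are given as a description. The model fitted to the whole table gives these genes a call like any other, and such calls are counted only beside those of all genes and support nothing.

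Among the listed genes, tryptophan enters the route through the dioxygenases Tdo2, mainly a liver enzyme, and Ido1, an enzyme induced by interferon gamma. Afmid then forms kynurenine, Kmo and Kynu carry it on to 3-hydroxyanthranilate, Haao makes the precursor of quinolinate, and Qprt turns quinolinate into a nucleotide on the way to NAD. Acmsd diverts that precursor away from quinolinate, Aadat converts kynurenine into kynurenic acid, and Nampt recycles nicotinamide to NAD outside this route. In the kidney, proximal tubule cells are known to be able to make NAD from tryptophan.

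Promoter sequences, 250 bases before to 50 after the gene start listed by RefSeq (GRCm38.p6), were at hand for 8 of the 10 genes. None was at hand for Ido1 or for Kynu, which had the widest gap between the strains of the 7 tested genes. The promoters of Aadat and Haao are shown because these genes also lay apart between the strains, Aadat higher and Haao lower in NZB/W. The Aadat window is chr8:60505874-60506173 on the plus strand, and the Haao window is chr17:83846741-83847040 on the minus strand. Both are printed 5′ to 3′ along their gene, and capitals mark the only matches to 7 motifs that were searched on both strands.
Aadat: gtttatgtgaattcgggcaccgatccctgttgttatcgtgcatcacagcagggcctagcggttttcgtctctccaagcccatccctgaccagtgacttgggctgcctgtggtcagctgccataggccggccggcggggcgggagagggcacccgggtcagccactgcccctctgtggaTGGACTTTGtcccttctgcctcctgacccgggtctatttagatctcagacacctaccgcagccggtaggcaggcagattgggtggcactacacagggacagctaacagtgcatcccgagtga
Haao: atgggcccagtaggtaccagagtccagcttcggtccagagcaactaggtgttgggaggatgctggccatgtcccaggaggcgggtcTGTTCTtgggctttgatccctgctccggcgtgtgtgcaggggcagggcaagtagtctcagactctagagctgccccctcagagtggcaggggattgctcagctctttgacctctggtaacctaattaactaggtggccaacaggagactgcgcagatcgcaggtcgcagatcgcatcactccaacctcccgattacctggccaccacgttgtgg
The capitals in the Aadat window are the reverse strand of CAAAGTCCA, an HNF4 motif, and begin at base -72 from the start. This motif was found in 0.475% of 32851 promoters of the same length and in none of the other 7 windows. The capitals in the Haao window are the reverse strand of AGAACA, a motif of the androgen receptor, and begin at base -164. It was found in 19.0% of all promoters and also once in the Kmo window. The STAT motif TTCNNNGAA matched once in the Qprt window (8.3% of all promoters) and TATAAA once in the Tdo2 window (13.6% of all promoters). No matches overlapped. The interferon response element (3.44% of all promoters), CEBP (TTGCNCAA, 2.94%) and AHR (TTGCGTG, 1.16%) had no match in the 8 windows. A match is a run of letters, and binding was not measured.

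Expression was read on Affymetrix arrays in log2 units. The deposited values of the strains lay apart as a whole, with a mean array median of 7.38 in NZB/W and 8.08 in NZW/BXSB kidneys, so the arrays were quantile-normalized together, and values are on that common scale except where the deposited one is named. A gene was tested when the authors' call put it above baseline in 1 strain or both (14419 genes), and it was called when limma gave a Benjamini-Hochberg adjusted p below 0.05. Across the 14419 genes, calls reached 69.4% on the common scale (33.3% with the higher and 36.1% with the lower level in NZB/W), and for 54.6% no kidney of one strain fell in the range of the other. Xist was above baseline in NZB/W only, and the Y-linked Ddx3y in NZW/BXSB only, as the sexes given by the study would have it. All 10 proximal tubule markers listed were tested, and their mean lay between 11.97 and 12.24 in NZB/W and between 12.10 and 12.16 in NZW/BXSB kidneys. That mean joins markers that moved both ways, since Cyp2e1 was 6.72-fold lower in NZB/W while the median difference over the 10 was 0.24.

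Of the 7 listed genes that entered the fit, Kynu and Aadat were counted as higher and Haao and Afmid as lower in NZB/W, while Kmo, Qprt and Nampt were in neither count. Kynu, Aadat and Haao, 3 of the 7, had no overlap between the strains. The median difference over the 7 genes, NZB/W minus NZW/BXSB, was 0.14, against -0.01 over all tested genes. With 69.4% of all genes called and 54.6% without overlap, nothing is read from these counts, the more so as the genes were chosen with these differences known. As deposited, NZB/W had the higher level in 2 and the lower level in 5 of the 7 genes by the same call, where the background was 5.56% higher, 84.0% lower and 89.5% in either direction.

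**Figure D1:**
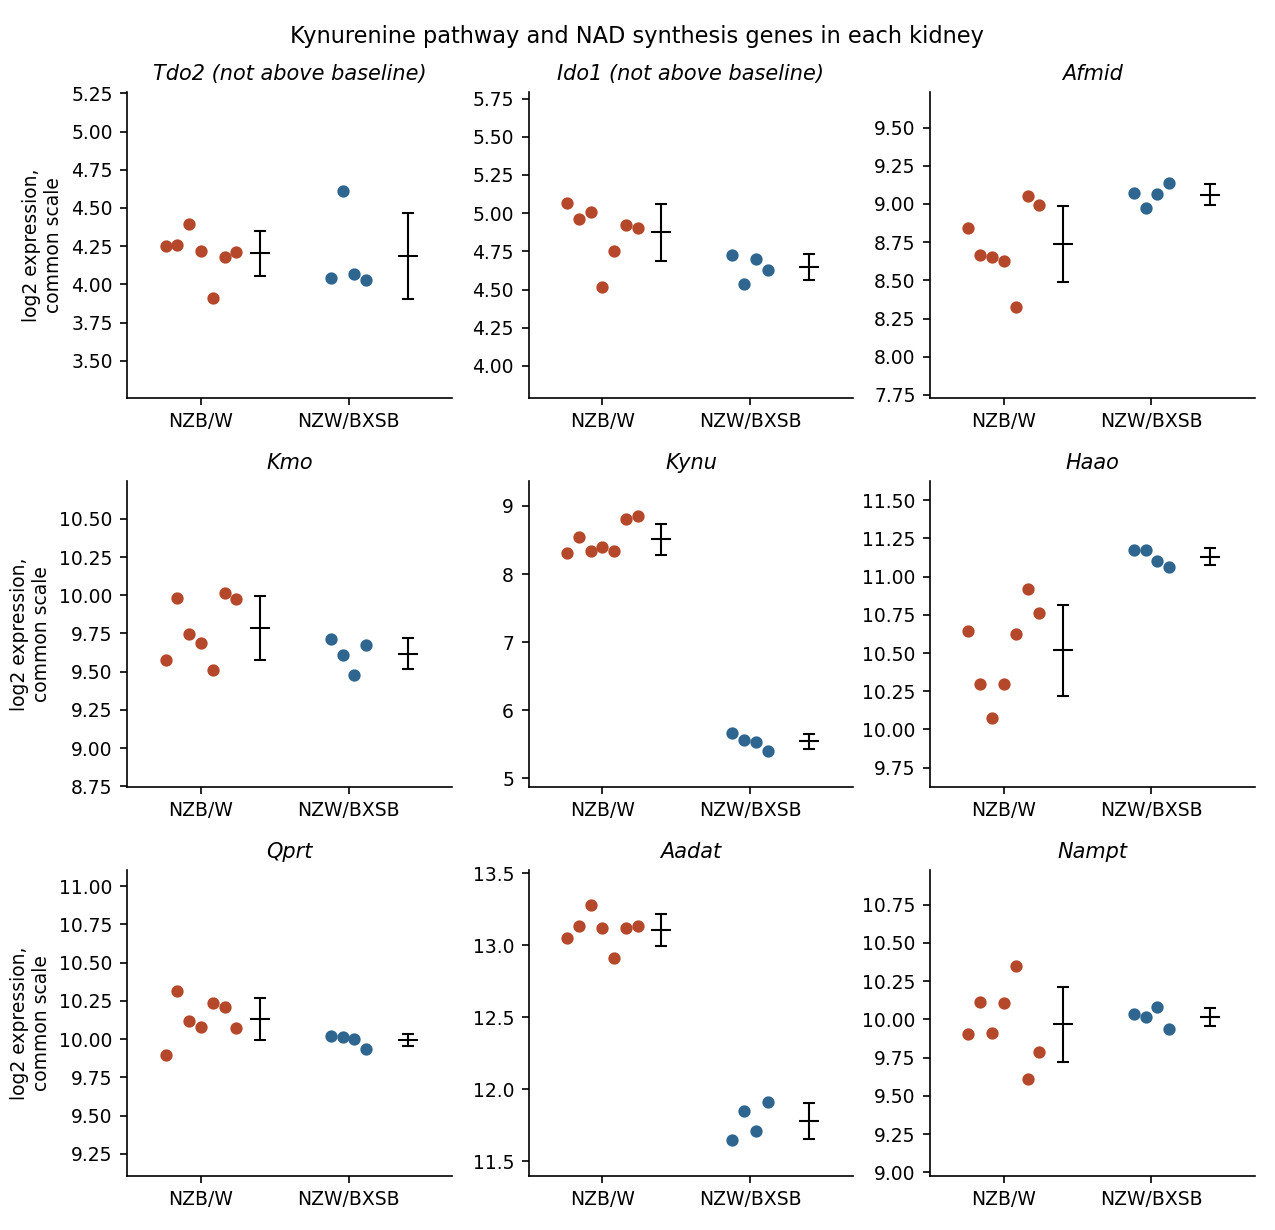
Log2 expression on the common scale (vertical axis, with a span that differs between panels) of the 9 genes with values in each of the 7 NZB/W (left) and 4 NZW/BXSB kidneys (right); points are kidneys, and bars are the mean and SD. Kynu and Aadat lie higher and Haao lower in NZB/W without overlap, and Tdo2 and Ido1 lie at background in both strains.

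Both listed dioxygenases at the entry of the route were at background. Tdo2 was not above baseline in either strain, with values between 3.91 and 4.40 (median 4.22) in NZB/W and of 4.04, 4.61, 4.07 and 4.03 in NZW/BXSB kidneys. Ido1 was not above baseline either, with values between 4.52 and 5.07 (median 4.92) in NZB/W and of 4.72, 4.53, 4.70 and 4.63 in NZW/BXSB. In every kidney both genes lay below the 95th percentile of the genes not above baseline, which was 5.42 in NZB/W and 5.03 in NZW/BXSB, so no fold is given and they stayed out of the fit. When all 16475 genes were fitted without regard to the baseline, Ido1 differed by 0.23 and was counted as higher in NZB/W. Tdo2 differed by 0.02 and was not called. That fit called 5 of the 9 listed genes with values, beside 11311 of all 16475 genes, so nothing is read from this count. NZB/W replicate 5, in which the mean of 10 interferon-stimulated genes was 9.10 (7.53 to 7.95 in the rest of its strain), had an Ido1 value of 4.75, within the range of its strain. Ido2, counted below with the side branches, was above baseline in NZW/BXSB only, with means of 5.43 in NZB/W and 5.58 in NZW/BXSB. Its difference was -0.15 (limma adjusted p = 0.0334), and with median centring it was -0.02 and not called.

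Afmid, the formamidase that releases kynurenine, was well expressed and somewhat lower in NZB/W. Its values lay between 8.33 and 9.05 (median 8.67) in NZB/W and were 9.07, 8.97, 9.06 and 9.14 in NZW/BXSB. Replicates 6 and 7 of NZB/W, at 9.05 and 8.99, reached into the NZW/BXSB range, and the other 5 lay below it. The difference was -0.32 (SE 0.11, 95% interval -0.57 to -0.08), which is 1.25-fold lower in NZB/W. Without NZW/BXSB replicate 4 it was no longer counted as lower (difference -0.30), a kidney whose label starts with another code than the rest of its strain.

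Kmo and Kynu, neighbouring steps, stood very differently between the strains. Kmo, the monooxygenase that makes 3-hydroxykynurenine, had values between 9.51 and 10.02 (median 9.75) in NZB/W and of 9.71, 9.61, 9.48 and 9.67 in NZW/BXSB, and the groups overlapped. Its difference was 0.17 (95% interval -0.05 to 0.38) on the common scale and -0.55 on the deposited scale, where all tested genes had a median of -0.69.

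Kynu, the kynureninase that cleaves kynurenine and 3-hydroxykynurenine, had the widest gap of the 7 tested genes. The values were 8.30, 8.54, 8.35, 8.40, 8.34, 8.81 and 8.85 in NZB/W and 5.67, 5.57, 5.54 and 5.40 in NZW/BXSB. Every NZB/W kidney lay far above every NZW/BXSB kidney, and NZW/BXSB lay little above the background level of 5.03. The difference was 2.97 (SE 0.11, 95% interval 2.73 to 3.20), a 7.83-fold higher level in NZB/W, and 2.36 on the deposited scale. By size it ranked 28 among the 14419 tested genes, and 9 among those higher in NZB/W. Kynu is also expressed in macrophages, and the mean of 9 macrophage and dendritic cell markers lay between 7.54 and 8.02 in NZB/W and between 7.47 and 7.85 in NZW/BXSB. Of these markers 4 had a higher and 2 a lower call in NZB/W, so 66.7% were called, near the 69.4% of all tested genes. Those with the smallest p were Fcer1g (1.71-fold), Csf1r (1.41-fold) and Ctss (1.98-fold), higher in NZB/W, and Itgam, at least 1.53-fold lower. On the deposited scale Csf1r turned sign (-0.22), and Fcer1g (0.07) and Ctss (0.27) were not called.

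Of the steps after Kynu, Haao lay the other way. Haao, the dioxygenase that opens the ring of 3-hydroxyanthranilate, had values between 10.08 and 10.92 (median 10.62) in NZB/W and of 11.18, 11.17, 11.10 and 11.06 in NZW/BXSB. All NZB/W kidneys lay below all NZW/BXSB kidneys, with a wide spread in NZB/W (SD 0.30) and a narrow one in NZW/BXSB (SD 0.06). The difference was -0.61 (SE 0.13, 95% interval -0.90 to -0.33), 1.53-fold lower in NZB/W, and -1.33 on the deposited scale. The pooled SD of Haao was 0.25, against a median of 0.11 over all tested genes.

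Qprt, the transferase that uses quinolinate, had values between 9.90 and 10.32 (median 10.12) in NZB/W and between 9.94 and 10.02 in NZW/BXSB. Only NZB/W replicate 1, at 9.90, lay below all 4 NZW/BXSB kidneys, and all others lay above them. The difference was 0.14 (95% interval -0.01 to 0.29), and without that replicate it was 0.18 and was counted as higher. On the deposited scale it was -0.58.

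Aadat, which draws kynurenine off to kynurenic acid and also acts on aminoadipate of lysine breakdown, was higher in NZB/W. The values were 13.05, 13.13, 13.28, 13.12, 12.91, 13.12 and 13.13 in NZB/W and 11.64, 11.85, 11.71 and 11.91 in NZW/BXSB. The nearest kidneys of the strains stood at 12.91 and 11.91, so the groups lay well apart, and the spread was similar (SD 0.11 in NZB/W, 0.12 in NZW/BXSB). Their difference was 1.33 (SE 0.07, 95% interval 1.17 to 1.48), 2.51-fold higher in NZB/W, and 0.66 on the deposited scale.

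Nampt, the rate-limiting enzyme of NAD salvage, had strain means closer together than its spread between NZB/W kidneys. Its values lay between 9.61 and 10.35 (median 9.91) in NZB/W and were 10.03, 10.01, 10.08 and 9.94 in NZW/BXSB, which lay wholly inside the NZB/W range. The difference was -0.05 (95% interval -0.29 to 0.19), so a change of more than 0.29 in either direction lay outside the interval. It was -0.77 on the deposited scale, against the median of -0.69, and turned to 0.011 on the common scale without NZB/W replicate 6.

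**Figure D2:**
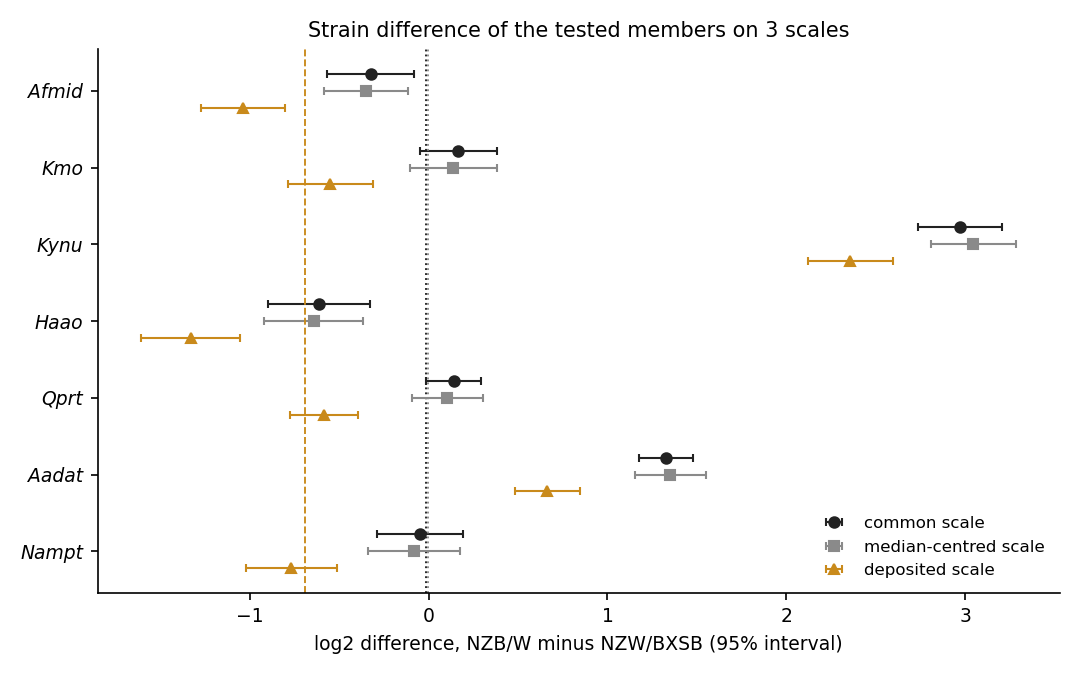
Log2 difference, NZB/W minus NZW/BXSB (horizontal axis), with 95% intervals for the 7 tested genes on the common, median-centred and deposited scales; vertical lines give the median of all 14419 tested genes on each scale. Kynu and Aadat lie right of 0 on all 3 scales, Haao and Afmid left of 0, and Kmo and Qprt change side on the deposited scale, where the median gene lies at -0.69.

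Tryptophan has to enter the tubule cell before the route can use it. Of 6 uptake genes tested, NZB/W had higher calls in 3 and lower calls in 1, and their median difference was 0.12. With 4 of 6 called (66.7%), the list stood near the 69.4% of all tested genes. Slc3a2, the heavy chain shared by several amino acid transporters, was higher in NZB/W (difference 0.70, limma adjusted p = 4.39e-07), as were its light chains Slc7a8 (0.77, adjusted p = 0.00101) and Slc7a5 (0.20, adjusted p = 0.00895). On the deposited scale no uptake gene was called higher and 4 were called lower, beside 5.56% and 84.0% of all tested genes. There Slc3a2 (-0.001) and Slc7a5 (-0.48) turned sign, and neither Slc3a2 nor Slc7a8 (0.06) was called. Slc16a10, an aromatic amino acid transporter, was not above baseline in NZB/W and at least 1.56-fold lower there than in NZW/BXSB. Slc6a19, the apical transporter of neutral amino acids in the proximal tubule, differed by -0.07 and was not called.

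Enzymes of the side branches moved in both directions. Of 10 tested, NZB/W had higher calls in 4 and lower calls in 4, and their median difference was -0.02, beside higher calls in 33.3% and lower calls in 36.1% of the whole table. As deposited they had 3 higher and 6 lower calls, beside 5.56% and 84.0% of all tested genes. Aadat shares the formation of kynurenic acid with Kyat1 and Kyat3. Kyat1 averaged 6.66 ± 0.12 in NZB/W and 8.88 ± 0.05 in NZW/BXSB (SD, n = 7 and 4), which was 4.64-fold lower in NZB/W (limma adjusted p = 2.04e-11). Kyat3 averaged 10.92 ± 0.12 in NZB/W and 9.97 ± 0.07 in NZW/BXSB, 1.93-fold higher in NZB/W (limma adjusted p = 4.14e-08). The 3 aminotransferases were thus not shifted together: Aadat and Kyat3 were higher in NZB/W and Kyat1 lower on the common, median-centred and deposited scales. Outside the kynurenine route, Ddc, which makes serotonin, dopamine and tryptamine, was 2.18-fold higher in NZB/W (limma adjusted p = 4.27e-09), and Maoa, which breaks such amines down, 2.44-fold higher (limma adjusted p = 1.23e-09).

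The other genes of NAD synthesis and salvage were mostly lower in NZB/W. Of 15 tested, 12 were called lower and 2 higher, where 36.1% and 33.3% of all tested genes were called in those directions, and their median difference was -0.34 against -0.01 over all tested genes. The mean of the 15 genes lay between 8.13 and 8.22 in NZB/W and between 8.49 and 8.53 in NZW/BXSB kidneys. Nmnat1, the nuclear enzyme that completes NAD, was 1.72-fold lower in NZB/W (limma adjusted p = 6.32e-07). Nmrk1, the nicotinamide riboside kinase, was 1.68-fold lower (limma adjusted p = 8.54e-08), Nadk2, the mitochondrial NAD kinase, 1.55-fold lower (limma adjusted p = 8.88e-06) and Naxd, which repairs hydrated NADH, 1.52-fold lower (limma adjusted p = 1.58e-07). Aox1 and Naxe were the 2 called higher, with differences of 0.37 and 0.15, and Naxe was not called with median centring (0.13). Both were negative on the deposited scale, where 14 of the 15 were called lower and none higher, beside 84.0% and 5.56% of all tested genes. A stricter rule took a limma adjusted p of at most 0.001 with a fold of at least 1.4 or at most 0.7. The study set these limits on another test. Under this rule 5 of the 15 genes were lower and none higher. Of all 14419 tested genes, 1963 were lower and 2056 higher under it, which is 27.9% in either direction.

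Genes that consume NAD showed no common direction. Of 17 tested, NZB/W had higher calls in 3 and lower calls in 5, and their median difference was 0.08, so 47.1% were called where 69.4% of all tested genes were. As deposited they had 14 lower calls and none higher, with 84.0% of all tested genes called lower. Parp3 was 1.68-fold lower (limma adjusted p = 2.48e-06), Tnks 1.20-fold lower (limma adjusted p = 6.44e-04) and Parp2 1.26-fold higher in NZB/W (limma adjusted p = 4.22e-04), the last with -0.37 on the deposited scale. Sarm1, an NAD hydrolase known from axons, was not above baseline in NZW/BXSB and at least 1.53-fold higher in NZB/W. The interferon-inducible Parp9 and Parp14 had differences of 0.49 and 0.66 and were not called. Among the 7 sirtuins, Sirt5 (-0.25) and Sirt7 (-0.22) were called lower.

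Of 9 tested regulators and receptors, 3 were higher and 2 lower by the same call in NZB/W, and their median difference was 0.18, so 55.6% were called where 69.4% of all tested genes were. As deposited they had 5 lower calls and none higher, with 84.0% of all tested genes called lower. Ppargc1a, a coactivator known to raise the enzymes that make NAD from tryptophan in mouse kidney, averaged 10.53 ± 0.32 in NZB/W and 9.47 ± 0.21 in NZW/BXSB (SD, n = 7 and 4), 2.09-fold higher in NZB/W (limma adjusted p = 3.24e-05). On the deposited scale its difference was 0.36 and was not called. Irf1, an interferon-responsive factor, was 1.65-fold higher (limma adjusted p = 1.89e-04), and not called on the deposited scale (0.02). Arnt, the partner of the kynurenine-sensing receptor Ahr, was 1.48-fold lower in NZB/W (limma adjusted p = 5.54e-04), while Ahr (0.11) and Hnf4a (-0.03) were not called.

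**Figure D3:**
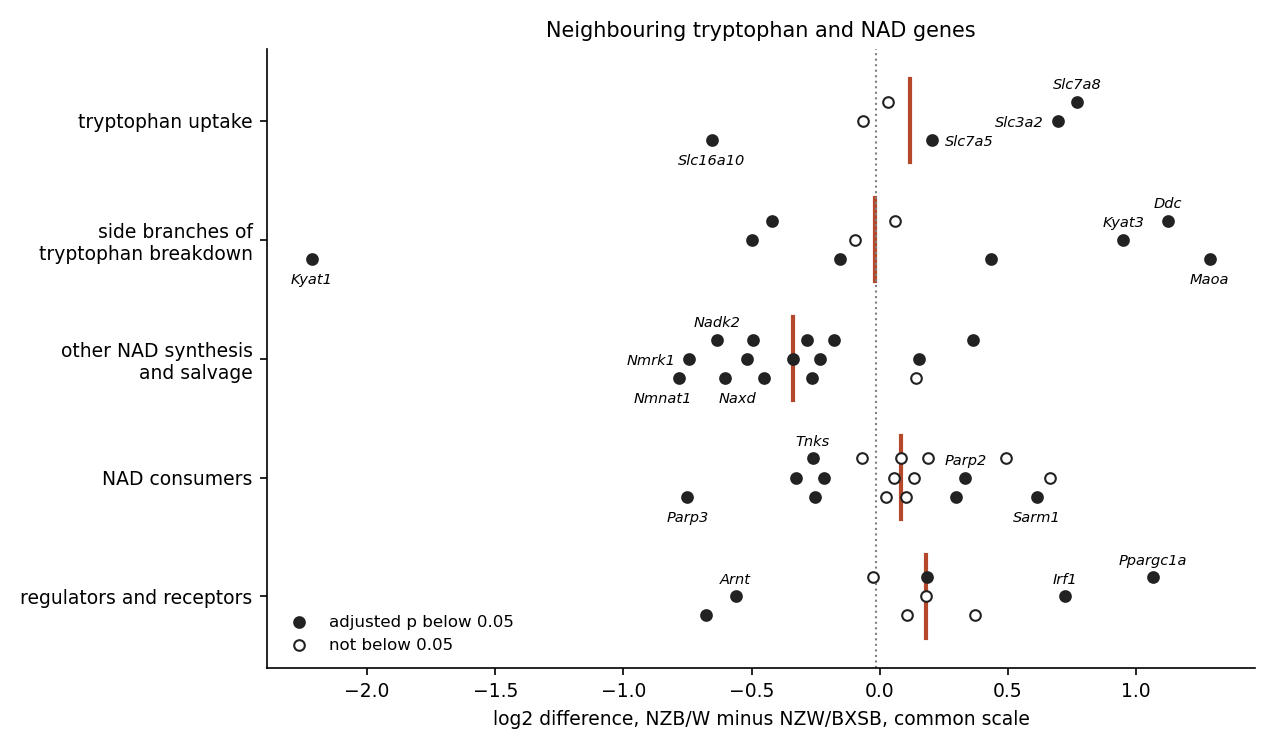
Log2 difference on the common scale, NZB/W minus NZW/BXSB (horizontal axis), of each tested gene of 5 neighbouring lists (rows); filled points had a limma adjusted p below 0.05, red bars are list medians and the dotted line is the median of all tested genes. The genes of NAD synthesis and salvage lie mostly left of the line, with a median of -0.34, and the other 4 lists lie on both sides.

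Marker lists of other cells and states moved with the strains to different degrees. For comparison, 33.3% of all tested genes had a higher and 36.1% a lower call in NZB/W on the common scale, or 69.4% in all. The shares called were 90% of the proximal tubule, 90% of the interferon and 55.6% of the liver list. Of 10 proximal tubule markers 6 had a higher and 3 a lower call in NZB/W, and their median difference was 0.24. Cyp2e1 was 6.72-fold lower (limma adjusted p = 4.89e-09), while Slc22a8 (2.81-fold, limma adjusted p = 7.14e-07), Slc5a12 (2.03-fold, limma adjusted p = 1.00e-07) and Lrp2 (1.39-fold, limma adjusted p = 3.60e-06) were higher in NZB/W, Lrp2 with -0.16 on the deposited scale. Of 10 interferon-stimulated genes 8 were called higher and 1 lower, their median difference being 0.88, and their mean lay between 7.53 and 9.10 in NZB/W and between 7.09 and 7.30 in NZW/BXSB kidneys. Xaf1 was 3.18-fold and Gbp2 2.36-fold higher in NZB/W (limma adjusted p = 8.93e-05 and 1.46e-04). The mean of 9 liver markers was lower in NZB/W, between 6.16 and 6.42, against 6.75 to 7.35 in NZW/BXSB, and this mean was carried by a few genes, since the median difference over the 9 markers was 0.04, with 2 called higher and 3 lower. Apoh was at least 8.23-fold, Serpina1a 7.54-fold and Fgb at least 1.55-fold lower in NZB/W, while F2 was at least 1.51-fold higher. As deposited, higher and lower calls were 2 and 8 for the proximal tubule list, 2 and 1 for the interferon list, 0 and 6 for the macrophage list and 0 and 7 for the liver list, beside higher calls in 5.56% and lower calls in 84.0% of the whole table. The part of these lists in the differences of the kynurenine genes was not tested.

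Within a strain, no relation between 2 of the listed genes passed correction. Values were set relative to the mean of their strain, and each of 36 gene pairs was compared over the 11 kidneys by an exact permutation test within strains (two-sided, 120960 arrangements). Afmid and Nampt gave opposite deviations (Pearson r = -0.93, exact permutation p = 0.00148, adjusted over the 36 pairs 0.0533; Spearman rho = -0.83, exact p = 0.0134, adjusted 0.241). Without NZB/W replicates 5 and 6, the kidneys farthest from the median of Afmid, r was -0.78. The adjusted p of this pair fell below the threshold without NZB/W replicate 2 (0.0292) or 3 (0.0333), or NZW/BXSB replicate 2 (0.0393) or 3 (0.0476). It lay above the threshold without any other single kidney, at most at 0.283 (without NZB/W replicate 7), and at 0.431 without NZB/W replicates 6 and 7, 0.167 on the deposited scale and 0.240 with median centring. Kynu and Kmo gave a positive relation (r = 0.78, exact permutation p = 0.0195, adjusted 0.351; rho = 0.84, exact p = 0.0104, adjusted 0.241), with r = 0.59 without NZB/W replicates 6 and 7. The other 34 pairs had an unadjusted Pearson p above 0.05.

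The kidneys at the ends of these relations were of NZB/W. In NZB/W replicate 5, which had the highest interferon-stimulated mean, Nampt was highest (10.35), and Afmid (8.33), Kmo (9.51) and Aadat (12.91) were the lowest of the strain. NZB/W replicates 6 and 7 had the highest Kynu (8.81 and 8.85), Haao (10.92 and 10.76) and Afmid (9.05 and 8.99) of their strain and the lowest Nampt (9.61 and 9.79). These 2 kidneys also had the highest mean of proximal tubule markers (12.23 and 12.24, with 11.97 to 12.14 in the rest of the strain) and the lowest mean of macrophage markers (7.54 and 7.68). Over the 27 pairs of a listed gene and a marker list, none passed correction on the common scale and 6 had an unadjusted Pearson p below 0.05. Kynu against the macrophage markers gave a negative relation (r = -0.84, exact permutation p = 0.00389, adjusted 0.105; rho = -0.69, exact p = 0.0287, adjusted 0.387), with r = -0.64 without NZB/W replicates 6 and 7. Kynu against the proximal tubule markers gave a positive one (r = 0.79, exact permutation p = 0.0170, adjusted 0.143; rho = 0.60, exact p = 0.113, adjusted 0.511), and this relation rested on NZB/W replicates 6 and 7, since r was 0.10 without them. The pair passed correction on the deposited scale (r = 0.94, adjusted exact p = 0.00491) and with median centring (r = 0.92, adjusted exact p = 0.0270). Haao against the proximal tubule markers also gave a positive relation (r = 0.81, exact permutation p = 0.0319, adjusted 0.143; rho = 0.69, exact p = 0.0748, adjusted 0.470), with r = 0.62 without NZB/W replicates 3 and 6 and 0.54 without NZB/W replicates 6 and 7. The strain differences without NZB/W replicates 6 and 7 kept their side of the threshold in all 7 tested genes, and that of Nampt changed sign to 0.060.

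**Figure D4:**
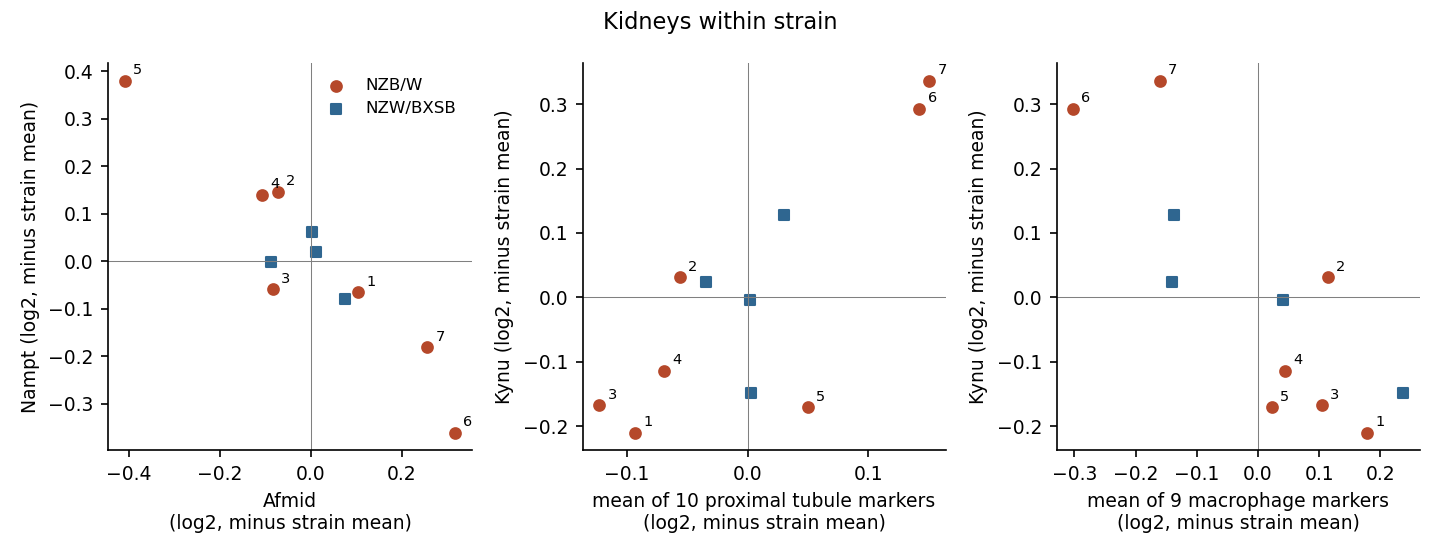
Values of each kidney relative to its strain's mean, in log2 units on the common scale, for Nampt against Afmid (left), Kynu against the mean of 10 proximal tubule markers (middle) and Kynu against the mean of 9 macrophage and dendritic cell markers (right); circles are NZB/W kidneys, numbered by replicate, and squares are NZW/BXSB kidneys. NZB/W replicates 5, 6 and 7 lie at the ends of the axes, and no relation passed correction.

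The genes whose values within strain were most like those of each listed gene were taken from all tested genes as a description. For Kynu they were Slc1a1 (r = 0.96), an epithelial glutamate transporter, Hoxc10 (0.94) and P2ry2 (0.94). For Haao they were Serp2 (0.98), Fis1 (0.97) and Fah (0.97), the last being the enzyme that ends tyrosine breakdown. For Nampt they were Grn (0.97), Faim (0.97) and Gbp2 (0.94), the last a guanylate-binding protein from the interferon list, and for Afmid they were Arhgef10l (0.96), Dnaja3 (0.95) and Tcte1 (0.93). The closest gene was Fam149a for Kmo (0.95), Grin3b for Qprt (0.96) and Slc6a2 for Aadat (0.91), each over 11 kidneys and among 14417 other genes. Such values are the highest of many and carry no test.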

How the data were processed

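Whole kidneys of 7 NZB/W and 4 NZW/BXSB mice were profiled on Affymetrix arrays, each sample being taken as 1 kidney by its label, and p-values measure the spread between these samples. The authors processed the arrays with RMA and deposited log2 expression values by Entrez gene, and they deposited a Yes or No call per strain for expression above a baseline set on negative control probes. The study also describes joint normalization and batch correction of its arrays. Whether the deposited values carry that correction was not tested. The genome build of the probe assignment is not given in the sources used here, and probe sequences were not used. Symbols were taken from the RefSeq gene table (16229 genes matched) or else from the deposited tables.

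The arrays were quantile-normalized together (common scale), a step that would hide a real shift shared by most genes. Genes called Yes in 1 strain or both entered limma 3.58.1 (lmFit and eBayes, R 4.3.3), with Benjamini-Hochberg adjustment over all of them. For a gene called No in 1 strain, or lying there below the 95th percentile of such genes, the fold is a lower bound against the higher of that level and its own mean. Relations within strain were tested in Python 3.11.15 by exact permutation. The scripts were tested on simulated data. The genes named are the 10 listed, up to 4 called genes with the smallest p per other list, the 3 genes most like each listed gene, and Xist and Ddx3y; 1 gene that this rule takes is not reported here. Others in the text (Ido2, Slc6a19, Aox1, Naxe, Parp9, Parp14, Sirt5, Sirt7, Ahr and Hnf4a) were chosen after their values were seen, as were the values of single kidneys that are set side by side. The listed genes and the gene lists were chosen with earlier results of these data known. Alternatives were the deposited scale, median centring, no filter, only genes called Yes in both strains, an intensity trend, robust eBayes, a stricter rule with the study's fold limits, which the study set beside a SAM q-value, a replicate block, and leaving out kidneys. Precision is limited by the 11 arrays.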

Additional observations from a re-analysis of the deposited data

Results flagged for a closer look

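Of 24 groups of 4 or 7 kidneys (the 9 listed genes and 3 marker means in each strain), 2 had a kidney far from the others by Dixon's test, and chance marks about 1 in 20 groups. Tdo2 was 4.61 in NZW/BXSB replicate 2, against 4.03 to 4.07 in the other 3, all at background. The mean of 10 interferon-stimulated genes was 9.10 in NZB/W replicate 5, against 7.53 to 7.95 in the other 6.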

How the results depend on the processing

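Of 303 recomputed values, 281 kept their direction and their side of the threshold (counts within 1.5 times), as did 126 of 133 for the strain differences of single listed genes. The deposited scale gave 801 calls with the higher and 12105 with the lower level in NZB/W, against 4798 and 5203 on the common scale; 7 listed genes were called (2 higher, 5 lower) and 14 NAD consumers, all lower, and Kmo (-0.55) and Qprt (-0.58) reversed, beside a deposited median of -0.69. Nampt, near 0, was 0.060 without NZB/W replicates 6 and 7 and 0.011 without NZB/W replicate 6. Under the stricter rule the counts were 4019 of all genes, 2 listed genes (Kynu and Aadat), 2 uptake, 4 side branch, 5 NAD synthesis and 2 NAD consumer genes. Of the pairs with marker lists, 1 was called on the deposited scale, 4 with median centring (Kynu with the proximal tubule and macrophage lists, Haao with the macrophage list, Afmid with the interferon list) and 2 without NZB/W replicate 1 (Haao with the proximal tubule and macrophage lists); the cause was not tested. Leaving out 1 kidney gave 9312 to 10014 called genes, 3 to 5 listed genes, 4 to 4 uptake, 6 to 8 side branch, 12 to 14 NAD synthesis, 7 to 10 consumer and 4 to 5 regulator genes, 0 to 1 listed pairs and 0 to 2 marker pairs, with differences of 2.92 to 3.02 for Kynu, 1.29 to 1.38 for Aadat, -0.68 to -0.54 for Haao and -0.11 to 0.011 for Nampt.

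The replicate numbers did not pair the kidneys: same-numbered kidneys of the strains correlated between -0.13 and 0.28, and 1 of the 4 NZW/BXSB kidneys was closest to its own number. With the number as a replicate block, 9285 genes were called, among them 4 listed, 3 uptake, 9 side branch, 12 NAD synthesis, 9 consumer and 4 regulator genes. Of the genes named from the other lists by smallest p, Slc7a5 alone lost its call under the block. The genes chosen after their values were seen were not followed singly under the block. Of the NAD synthesis genes, 1 was called higher under the block, against 2 without it.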
